A study of Mus musculus with 3 samples.

Results

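The cytoplasmic ribosomal protein genes of the mouse were followed in maps of open chromatin taken before and after breakdown of NIPBL, the factor that loads cohesin onto DNA. Members were the protein-coding genes with a symbol of Rpl or Rps followed by a digit, together with Rplp0, Rplp1, Rplp2 and Rpsa. Symbols of processed copies (-ps) and the S6 kinase genes were left out. The rule found 89 of the 21887 protein-coding genes of the annotation. Of these, 77 are genes of the ribosome itself, 46 for the large subunit and 31 for the small one. The other 12 are 11 duplicate or tissue-restricted copies and Rps19bp1, whose product binds a ribosomal protein but is not part of the ribosome. Some symbols were added to the list of copies after the annotation had been read (Rpl32l, Rpl37rt, Rps23rg1 and Rps27rt).

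Open DNA was cut and tagged by a transposase (ATAC-seq) in ECOMG cells, a mouse myeloid progenitor line grown with GM-CSF and β-estradiol. All libraries carried the genotype FKBP12F36V_NIPBL, in which NIPBL is fused to a degron that the small molecule dTAG sends for breakdown. The 3 libraries, each from 50000 cells, were a 0 h library without dTAG and 2 with it, after 6 h and 72 h, all in estradiol. There was 1 library per time, so differences between times have no replicate to be checked against, and none was tested. Untreated cells of the later times were not analysed here, so dTAG, time in culture and the library itself cannot be told apart. Whether the line is a single clone is not stated in the labels.

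Each library had its own list of accessible regions (peaks), with a fold over background at the summit as the authors' peak caller gave it. They numbered 182233 (0 h), 178055 (6 h) and 145044 (72 h). The lowest fold listed was 3.02, 3.01 and 3.12, and the share of regions with a fold below 5 was 31.0%, 27.8% and 21.8%. The 72 h list was thus shorter and held fewer weak regions. Of 10 myeloid marker genes, 9 had a region at the start in each list, and Mpo had none. Of 21 markers of other cell types, 8, 6 and 8 had one. Neuronal markers had none in any list, while the fibroblast markers Col1a1 and Pdgfra had one in all of them. In such bulk libraries, fewer cells with a site open and less cutting per cell cannot be told apart.

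Ribosomal proteins are made in equal amounts to assemble with ribosomal RNA into the large and small subunits, and their genes are among the most transcribed of any growing cell. Vertebrate ribosomal protein genes are short, have GC-rich promoters that mostly lack a TATA box, and begin with a C inside a run of pyrimidines, the TOP (terminal oligopyrimidine) element through which mTOR signalling controls translation of their mRNAs. SP1, YY1 and ETS factors such as GABPA are known to bind many of these promoters. Loss of 1 copy of several of these genes causes Diamond-Blackfan anaemia, a failure of red cell production in the bone marrow.

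Promoter sequences came from a RefSeq table of GRCm38.p6, the assembly of mm10, which had an entry for 69 of the 89 members. Rpl37 had the highest start region at 0 h among members with an entry, Rpl26 had the largest increase in rank at 72 h, and Rps9 the largest decrease. Their promoters are shown from 120 bases before the start through the first 30 transcribed bases, with motif matches or a pyrimidine run at the start in capitals. Rpl37 lies at chr15:5116493-5116642, plus strand, Rpl26 at chr11:68901446-68901595, plus strand and Rps9 at chr7:3703921-3704070, plus strand.
Rpl37: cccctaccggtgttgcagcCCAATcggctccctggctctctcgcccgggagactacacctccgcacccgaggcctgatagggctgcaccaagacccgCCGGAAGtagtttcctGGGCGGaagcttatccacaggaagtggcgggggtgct
Rpl26: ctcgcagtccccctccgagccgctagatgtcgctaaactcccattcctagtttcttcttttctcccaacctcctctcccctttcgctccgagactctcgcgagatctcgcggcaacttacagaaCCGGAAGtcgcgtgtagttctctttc
Rps9: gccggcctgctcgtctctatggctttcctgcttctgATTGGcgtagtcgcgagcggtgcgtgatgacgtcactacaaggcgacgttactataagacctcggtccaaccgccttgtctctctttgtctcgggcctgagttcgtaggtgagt
The capitals in Rpl37 are, from 5′ to 3′, a CCAAT box, the ETS core CCGGAAG and a GC box, GGGCGG. Rpl26 holds the ETS core just after its start, and Rps9 holds a CCAAT box on the other strand. In all, 5 members had no start region in any list, and all of them are copies: Rpl10l (chr12:66284372-66284521, minus strand), Rpl32l (chr10:20208319-20208468, plus strand), Rpl37rt (chr5:115110239-115110388, minus strand), Rpl39l (chr16:10170108-10170257, plus strand) and Rps27rt (chr9:114982710-114982859, minus strand). They are shown over the same window for contrast.
Rpl10l: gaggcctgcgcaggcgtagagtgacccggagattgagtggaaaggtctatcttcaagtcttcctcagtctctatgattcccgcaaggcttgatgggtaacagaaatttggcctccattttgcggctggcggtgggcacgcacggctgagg
Rpl32l: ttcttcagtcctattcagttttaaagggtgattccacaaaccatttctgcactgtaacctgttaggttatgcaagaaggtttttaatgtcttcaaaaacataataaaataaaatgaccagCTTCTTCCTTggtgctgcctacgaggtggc
Rpl37rt: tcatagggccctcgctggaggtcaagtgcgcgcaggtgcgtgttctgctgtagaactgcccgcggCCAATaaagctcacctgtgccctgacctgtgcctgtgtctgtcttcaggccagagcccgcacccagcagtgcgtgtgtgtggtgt
Rpl39l: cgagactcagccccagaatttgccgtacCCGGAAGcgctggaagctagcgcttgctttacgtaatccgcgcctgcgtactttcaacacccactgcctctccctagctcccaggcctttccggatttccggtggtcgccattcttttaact
Rps27rt: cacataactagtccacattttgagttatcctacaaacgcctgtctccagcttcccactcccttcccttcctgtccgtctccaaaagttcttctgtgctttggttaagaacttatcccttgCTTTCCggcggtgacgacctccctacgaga
Rpl32l and Rps27rt begin with a pyrimidine run, Rpl37rt holds a CCAAT box and Rpl39l an ETS core, while Rpl10l holds none of the motifs searched in this window.

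Over the 57 members that are not copies and have a promoter entry, 6 motifs were searched on both strands from 250 bases before to 50 after the start. CCGGAAG, the ETS core, was found in 23 of the 57 promoters (40.4%), against 12.1% of all 17492 coding promoters in the table and 19.2% of the 9882 promoters with a start region in every list. AAGATGG, the YY1 motif, was found in 8 (14.0%), against 6.45% and 7.49%. Both were thus more frequent than in either reference set. GGGCGG, the GC box bound by SP1, was found in 34 (59.6%), which lay between the 47.2% of all promoters and the 65.8% of those with a start region. CCAAT, the NF-Y box, was found in 18 (31.6%), below the 39.1% and 39.2% of the reference sets. CACGTG, the E-box bound by MYC and USF, was found in 5 (8.77%), against 7.89% and 10.3%. TATAAA, the TBP motif, was found in 5 (8.77%), against 13.1% and 6.61%, so for both of these motifs the direction depends on the reference set. The median position of the 6 TATAAA matches was 13 bases after the start. Matches of the ETS core lay upstream in 21 of 27 cases (median −53 bp from the start), and those of the GC box in 41 of 49 (median −45 bp). The window holds 250 bases before the start and 50 after it, so most matches would lie upstream wherever they fell. These shares therefore cannot show a preference for the upstream side. The 8 YY1 matches had their median 5.5 bases after the start.

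The TOP element stood out from the other sequence features. A C at the annotated start followed by at least 4 pyrimidines was present in 13 of the 57 promoters (22.8%), against 2.22% of all promoters and 2.14% of those with a start region in every list. Allowing such a run to begin within 10 bases of the annotated start gave 32 of 57 (56.1%), against 31.1% and 32.0%. The median GC content was 58.0%, against 56.7% over all promoters and 61% over those with a start region in every list. A match is a description of the letters, and no binding was measured.

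A region in the start window was present for all 77 genes of the ribosome in each of the lists. The start window spanned 1 kb on each side of the annotated start, or of either gene end for the 20 members without an entry. For those 20, a region at the far end of the gene also counts. Over all 89 members, 84 had a start region at 0 h (94.4%, exact 95% interval 87.4 to 98.2), 84 at 6 h and 83 at 72 h (93.3%, 85.9 to 97.5). Over all coding genes the shares were 62.1%, 61.7% and 57.6%. Intervals cover counting error only.

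Height was compared between libraries by rank, the percentile of a gene's highest start region by fold among those of its list. Ranks were taken over the 12378 genes with a start region at every time, where 50 is the middle. The 83 ranked members had a median rank of 63.6 at 0 h, 64.3 at 6 h and 64.8 at 72 h. They were spread over the whole range: 26 of 83 lay above rank 75 at 0 h and 5 below rank 25. As a group, the starts were above the middle of these ranked genes without being the most accessible among them. The large subunit had medians of 63.0, 64.5 and 65.9, and the small subunit 62.5, 63.9 and 64.5. Mitochondrial ribosomal protein genes (78) were lower, at 46.6, 46.5 and 50.2. Translation factor genes (65 ranked of 71) had 69.8, 70.0 and 64.8, and ribosome assembly genes (40) had 60.0, 55.3 and 60.9.

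Among the highest start regions at 0 h were those of Rpl3, Rpl37, Rpl15 and Rpl31, which encode large-subunit proteins. Rpl3 (chromosome 15, 80077781 to 80083406, mm10), whose protein reaches toward the peptidyl transferase centre, had folds of 187 at 0 h, 187 at 6 h and 197 at 72 h, and ranks of 98.6, 94.9 and 92.2. Rpl37 had folds of 175, 219 and 226 and ranks of 97.8, 98.3 and 96.3. These starts stayed above rank 75 in every library, although folds of different lists are not on 1 scale. Rpl15 had ranks of 97.6, 97.9 and 97.7, and Rpl31 96.7, 92.7 and 95.4. Rpl37 and Rpl15 are among 17 members whose 0 h start region also reached into the start window of another coding gene (Card6 and Nkiras1). The height of such a region cannot be assigned to 1 gene alone.

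At the low end, Rpl19 had folds of 28.7, 33.9 and 43.7 and ranks of 19.0, 20.8 and 28.6, and Rpl32 folds of 34.0, 36.9 and 45.3. Both encode large-subunit proteins and were low in all libraries relative to the other members. For Rpl32, the 6 h and 72 h folds came from a region outside its span that did not overlap the 0 h one. The highest region in its span had folds of 34.0, 35.4 and 42.2. Rpl17 ranked lowest of the ribosome's own genes, at 2.71, 1.12 and 11.8, but it has no promoter entry, and its highest region, of fold 62.0, 62.5 and 74.9, lay inside the annotated span beyond the 1 kb windows. Its rank therefore describes the span's ends, not its main open site.

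Some copies had a start region as high as those of the ribosome's own genes, and others had a weak one or none. Rpl22l1 (folds 96.8, 109 and 165), Rpl36al (106, 139 and 140), Rps27l (86.9, 85.1 and 103) and Rpl7l1 (45.4, 52.0 and 67.1) had start regions in the range of the ribosome's own genes, as did Rps19bp1 (115, 149 and 144). Rpl10l, which replaces Rpl10 in male germ cells, and Rpl39l, known from testis, had none. Rpl3l, the copy of Rpl3 used in heart and skeletal muscle, had weak regions within 1 kb of its start at 0 h (fold 5.29) and 6 h (6.03) and none at 72 h. Rps23rg1 had folds of 3.78, 3.77 and 5.46, near the lowest fold of each list. The copies known from testis or muscle thus had a weak listed start region or none in these cells. How reads that match both a copy and its parent gene were handled is not known. A missing region therefore need not mean closed DNA. Rpl3l overlaps the locus of Rps2, and they shared 12, 9 and 7 regions.

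**Figure D1:**
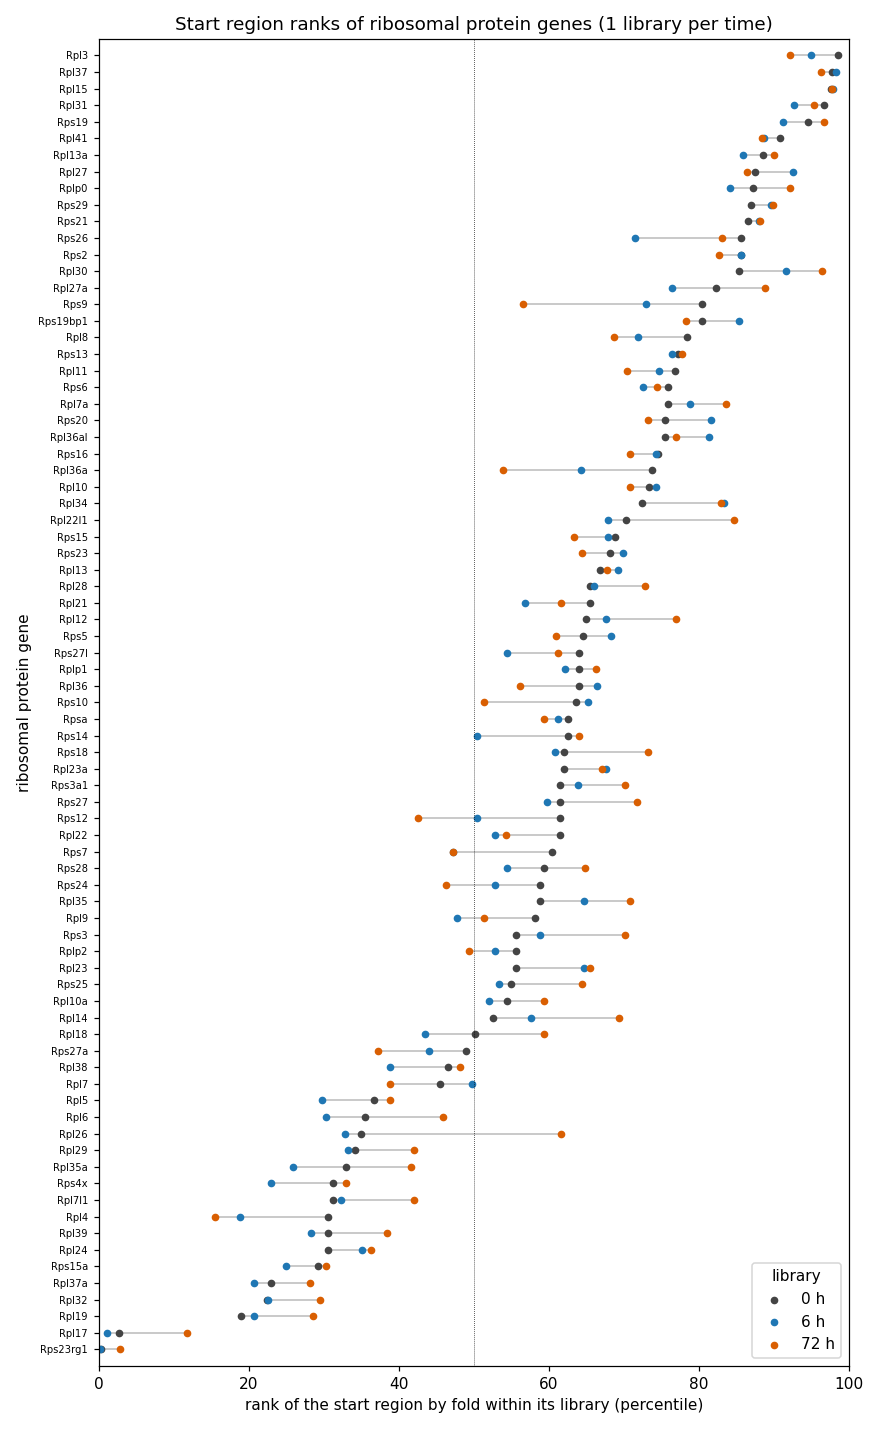
Rank of the start region within its library (x axis, percentile) for ranked ribosomal protein genes (y axis, ordered by the 0 h rank, a few members not drawn), with 1 point per library and a grey line joining the lowest and highest. Members lie across the whole range, with medians over all 83 of 63.6, 64.3 and 64.8, and Rpl26 and Rps9 have the longest lines.

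At 6 h of dTAG most starts of ribosomal protein genes had ranks close to those of 0 h. The median rank change was −1.58 points (quartiles −5.11 and 2.06), against 0.0364 over all ranked genes. Of the 83 members, 32 were higher and 51 lower by any amount. By a change of 10 points or more, 1 member was higher (1.20%; 3.59% of all ranked genes) and 7 were lower (8.43%; 3.78% of all). Of the 7, 5 are among the 31 small-subunit genes and 2 among the 46 large-subunit genes. No member was without its start region at 6 h (0 of 84; 3.47% of all genes with one at 0 h), and none of the 5 without one had it at 6 h (4.58% of all).

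The member higher by 10 points was Rpl34, a large-subunit gene: its fold was 100.5 at 0 h and 144 at 6 h, its rank went from 72.5 to 83.4, and it held 83.0 at 72 h. The next were Rpl23, whose protein can also bind MDM2 (55.6 to 64.8), and Rpl30 (85.3 to 91.7, then 96.4 at 72 h). Rps20 was higher by 6.17 points and Rpl35 by 5.98. Among the largest decreases were those of Rps26, Rps7, Rps14 and Rpl4. Rps26, a Diamond-Blackfan gene near the mRNA exit, went from 85.6 to 71.6 and was at 83.2 at 72 h, each time for a region upstream of its own start (summit at −314 bp at 0 h). Rps14, the gene tied to the anaemia of the 5q deletion syndrome, went from 62.5 to 50.4 and was at 64.1 at 72 h. For Rps26 and Rps14 the 6 h library is the one that stands apart. Rps7, another Diamond-Blackfan gene, went from 60.5 to 47.3 and stayed at 47.2.

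**Figure D2:**
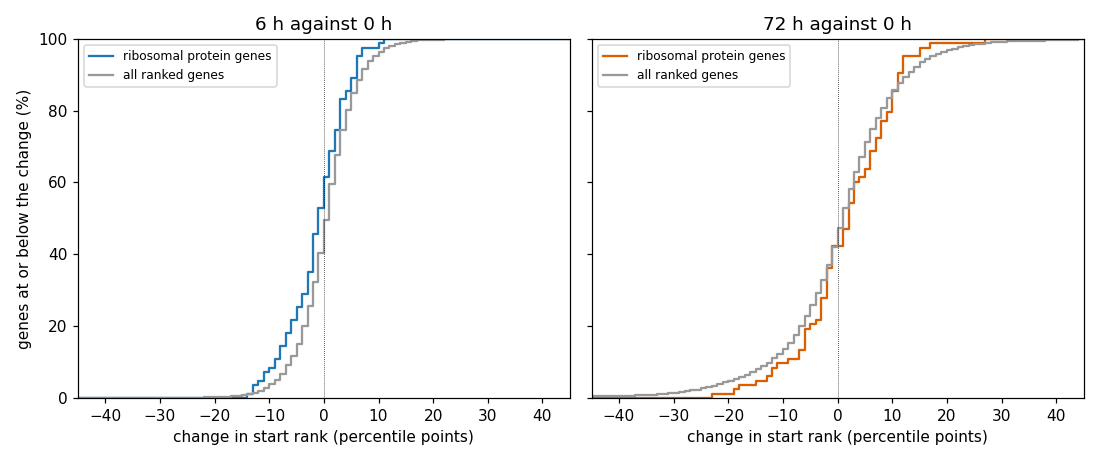
Cumulative share of genes (y axis, %) at or below a given change in start rank (x axis, percentile points) at 6 h and at 72 h, each against 0 h, for ribosomal protein genes (coloured) and all ranked genes (grey). The 6 h median of the members is −1.58 points and the 72 h median is 1.55.

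The members' loci, meaning the annotated span plus flanks of 10 kb, had fewer regions at 6 h, by a larger share than coding loci in general. They held 817 regions (0 h), 696 (6 h) and 681 (72 h), each counted once. The ratio to 0 h was 0.852 at 6 h (exact 95% interval of the ratio of 2 counts 0.769 to 0.944) and 0.834 at 72 h (0.752 to 0.924). Over all coding loci it was 0.981 at 6 h and 0.846 at 72 h. Relative to all loci, the members' ratio was 0.868 at 6 h and 0.985 at 72 h. The loci of the copies and Rps19bp1 held 89 regions at both 0 h and 6 h. Those of the X-linked members held 21 and 22. The intervals of their 6 h ratios began at 0.737 and 0.550 and reached above 1, so both contained the 0.852 of all members. With so few regions, whether these loci shared the 6 h difference cannot be told. At 6 h, 56 of 88 members had fewer regions (41.8% of all genes with a region), 19 had more (34.6% of all) and 14 had the same number, counting the member with none. At 72 h, 52 had fewer (61.1% of all) and 23 had more (24.1% of all). With the same number of regions taken from each list, the strongest first, the loci held 642, 580 and 681, so the 72 h number was then above that of 0 h. The 6 h ratio relative to all loci was then 0.899, with an interval of 0.803 to 1.01 that reaches 1. These intervals treat the counts as independent although most regions recur, and cover counting error only.

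By place, the 6 h ratio was lowest in the gene bodies. Regions in the gene bodies numbered 90, 58 and 55, a ratio of 0.644 at 6 h (0.455 to 0.906), against 0.987 over all coding gene bodies. Of the members' body regions, those with a fold below 5 numbered 43, 22 and 16, and those of at least 10 numbered 17, 17 and 27. At 6 h, 29 of 52 members with a body region had fewer (35.5% of all genes) and 6 had more (31.4% of all). At 72 h it was 27 of 53 (55% of all) and 5 (22.6% of all). Regions at the starts numbered 213, 191 and 228, those at the start of another gene 123, 103 and 119, and those in the rest of the flanks 391, 344 and 279. Over all coding loci the 72 h ratio was likewise higher at starts (0.977) than in gene bodies (0.817) and the rest of the flanks (0.796), where the members had 1.07, 0.611 and 0.714. The flank classes are not alike: the members' flanks include bodies of neighbouring coding genes, which over all coding loci count as gene bodies. Regions with a fold below 5 numbered 270, 166 and 138, against 39652, 34637 and 23755 over all coding loci. Those with a fold of at least 10 numbered 327, 335 and 367, against 51278, 53728 and 57204, so fewer weak regions and more strong ones were listed in all loci too. A region listed in pieces counts once per piece, so a higher 72 h number need not mean more open sites. At the members' starts, 152 of the 213 regions of 0 h were overlapped at 72 h, while 228 were listed then. Above a −log10 q minimum of 10, the loci held 378, 391 and 408, and the 6 h ratio relative to all loci was 0.990, so the 6 h decline was seen only when weaker regions were counted.

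Followed region by region, 79.8% of the 213 start regions of 0 h (73.8 to 85.0) were overlapped by a 6 h region, against 84.8% over all coding starts. In the gene bodies it was 47.8% of 90 (37.1 to 58.6), against 75.5% over all coding gene bodies. Of those 90, 43 had a fold below 5 and 17 a fold of at least 10. Over all coding gene bodies it was 25603 and 25922 of 77875. The members' 17 were all matched at 6 h, so the unmatched body regions were weaker ones. All 327 regions of fold 10 or more were matched at 6 h (99.8% over all coding loci), and 317 of them (96.9%) at 72 h (95.1% over all). Strong regions of the members were thus kept about as often as those of all loci.

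Single loci differed from each other. Rpl27 went from 13 to 6 (9 at 72 h), Rpl19 from 16 to 10 and 10, Rpl12 from 14 to 9 and 10, and Rpl23 from 9 to 4 and back to 10. At 72 h, among the largest differences were those of Rpl3 (28, 26 and 14) and of Rps19bp1 (26, 22 and 13), with Rplp0 (13, 8 and 6) and Rpl13 (16 to 10). Increases were smaller: at 6 h, Rpl27a, Rpl36al, Rpl4 and Rps20 gained 3 each. At 72 h, Rpl10, which joins the large subunit late in its assembly, went from 8 to 13 with 10 at 6 h, Rpl11 from 7 to 10 and Rpl7l1 from 7 to 10.

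In total number, other genes of the translation machinery had smaller 6 h differences. Mitochondrial ribosomal protein loci held 592, 591 and 550 regions, translation factor loci 694, 664 and 621, and ribosome assembly loci 361, 332 and 319. In their gene bodies the numbers were 98, 112 and 87, then 208, 187 and 189, and 77, 70 and 60. Among regions with a fold below 5, however, the numbers at 0 h and 6 h were 220 and 148 at translation factor loci, and 109 and 65 at ribosome assembly loci. For mitochondrial ribosomal protein loci they were 149 and 142. The lower number of weak regions at 6 h was thus not particular to the ribosomal protein genes. These lists are given as counts, and no test of their difference from the ribosomal protein genes was run.

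**Figure D3:**
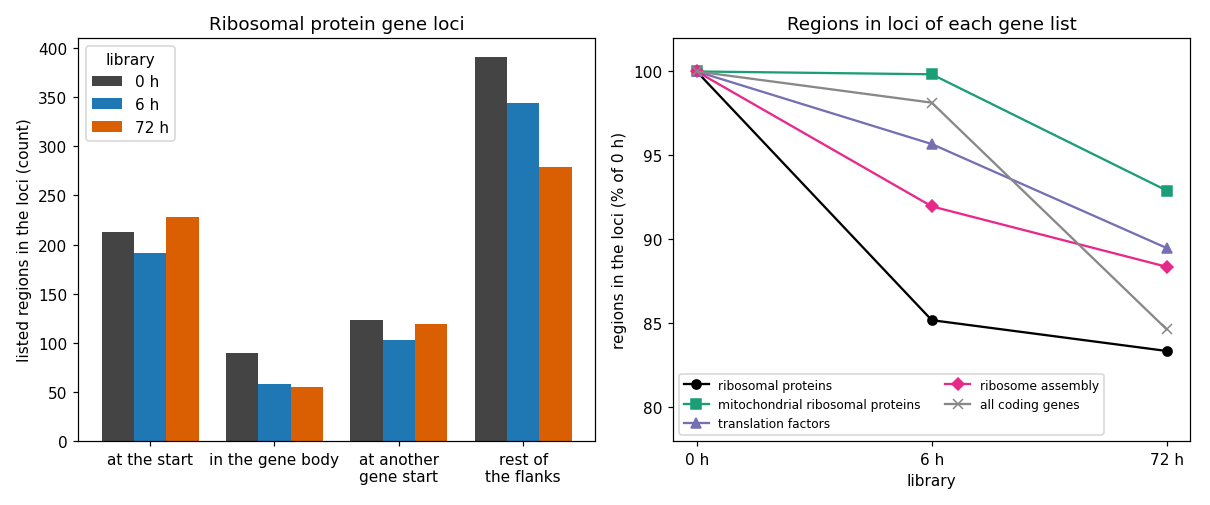
Left: number of listed regions (y axis) in ribosomal protein gene loci by place, 1 bar per library. Right: regions in the loci of each gene list as a percentage of 0 h (y axis, which does not start at 0) by library. Gene body regions go from 90 to 58 and 55, and at 6 h ribosomal protein loci (ratio 0.852) lie below all coding loci (0.981).

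At 72 h the starts were again high, but they had become shorter and were often listed in pieces. Median rank change was 1.55 points (quartiles −3.68 and 7.73), against 0.481 over all ranked genes, with 48 members higher and 35 lower by any amount. By 10 points or more, 12 members were higher (14.2% of all ranked genes) and 8 lower (13.7% of all). The members' counts, 14.5% and 9.64% of 83, were near those of all genes or below them. Large-subunit genes had a median change of 3.61 points and small-subunit genes of −1.51. Of the 8 lower members, 6 were among small-subunit genes, and 7 of the 12 higher ones were among large-subunit genes other than copies. Rpl3l alone was without its start region at 72 h (1 of 84; 8.55% of all), and none of the 5 without one at 0 h had it then (2.17% of all).

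Rpl26 had the largest increase in rank. It encodes a large-subunit protein at the exit of the peptide tunnel and is a Diamond-Blackfan gene. Its start region had a fold of 49.9 at 0 h, 52.7 at 6 h and 104 at 72 h, and ranks of 34.9, 32.8 and 61.7. The 0 h and 6 h libraries were alike, and the 72 h library stood above them. At the same time its length went from 693 and 672 bp to 307 bp: the region reached from −259 to 433 bp from the start at 0 h, and from −224 to 82 bp at 72 h, with a piece of fold 6.25 from 196 to 269. The 72 h region still covered the ETS core shown in the sequence above, and the part farther inside the gene was no longer listed as 1 stretch.

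Rpl14 (ranks 52.5, 57.7 and 69.4), Rps3, which lines the mRNA entry channel (55.6, 58.9 and 70.1), and Rpl22l1, the copy of Rpl22 (70.3, 67.9 and 84.7), followed. Rpl12, at the base of the stalk, went from 65.0 and 67.6 to 77.0, but at 72 h its highest region (fold 140) was one centred on the Lrsam1 side, with its summit at −1243 bp from the Rpl12 start. The region at its own start had a fold of 119, so the 77.0 does not rank that start.

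Rps9, a small-subunit gene, had the largest decrease, with folds of 115, 119 and 93.7 and ranks of 80.5, 72.9 and 56.6. Its region shortened from 1058 to 912 and 501 bp. Rpl36a, on the X chromosome, had ranks of 73.8, 64.3 and 53.9, and Rps12 61.5, 50.4 and 42.6. In these 3 genes the 6 h rank lay between the others. Rpl4, which lines the peptide tunnel, went from 30.6 to 18.9 and 15.5. Its start region had a fold of 44.6 at 0 h and 30.9 at 6 h, and at 72 h only pieces of fold 6.25 and 12.5 overlapped it, while the highest region in its window (fold 21.1) lay upstream. Of the 10 members named for their 72 h rank change, Rpl4 had the lowest rank then. Its 0 h region also reached into the start window of Zwilch.

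The shortening ran through most members. The median length of the highest start region was 789 bp at 0 h, 764 at 6 h and 504 at 72 h, against 581, 569 and 439 bp over all ranked genes. At 72 h, 73 of 83 members had a shorter region (72.5% of all ranked genes), and 31 one less than 50% as long (37.3% of members; 15.6% of all). At 6 h it was 54 (50.8% of all) and 3 (3.08% of all). In 51 of 84 members (60.7%) the 0 h start region was overlapped by 2 or more regions at 72 h (25.8% of all), and in 19 (22.6%) at 6 h (12.5% of all). Both counts at 72 h, of much shortened and of split regions, were above the share of all genes.

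Long regions split more often, and members have long regions, so the 72 h shares were also taken by length at 0 h. Of regions of 501 to 750 bp, 16 of 30 (53.3%) split among members, against 27.3% over all genes. From 751 to 1000 bp it was 18 of 27 (66.7%), against 48.4%, and from 1001 bp it was 16 of 18 (88.9%), against 68.4%. Up to 500 bp, 1 of 9 split, against 3.62%. Members were above all genes in each length class at 72 h, with few members in the shortest one. At 6 h this did not hold from 751 to 1000 bp (5 of 27, 18.5%, against 20.8%). From 501 to 750 bp it was 6 of 30, against 14.5%, and above 1000 bp 7 of 18 (38.9%), against 30.5%. At 72 h, with a −log10 q of at least 10 it was 29 of 81 (35.8%), against 19.9% over all genes, and after merging regions up to 150 bp apart 26 of 84 (31.0%), against 17.5%. With lists of equal length it was 51 of 83 (61.4%), against 26.7%.

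The part no longer listed as 1 stretch lay inside the gene. Over the 57 genes of the ribosome with an annotated start, the highest start region had its median edges at −259 and 499 bp from the start at 0 h. The highest region overlapping it had edges at −297 and 459 bp at 6 h, and at −236 and 143 bp at 72 h. Over the 9882 genes with an annotated start the downstream edge had medians of 309, 301 and 190. The upstream edge thus moved little, and the downstream edge came close to the start. The highest region ended within 200 bases after the start in 2 of 57 genes at 0 h (3.51%), in 4 at 6 h (7.02%) and in 34 at 72 h (59.6%). Over all genes the shares were 27.4%, 28.2% and 40.4%. With all pieces included, the outer downstream edge moved less (499, 491 and 466), so the listed stretch was interrupted and its far end stayed listed. The 72 h gaps numbered 50, with a median centre 234 bases after the start and a median length of 111 bp, and 47 of them (94.0%) lay downstream of the start. Over all genes 68.1% of 3641 gaps did. Gaps could lie only inside the 0 h start region, which reached farther downstream in the members (median 499 bp) than over all genes (309 bp). The part of this reach in the difference was not tested. At 6 h, 12 of 13 gaps were downstream.

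The summits stayed at the start. Their median position was −45 bp from the start at 0 h, −35 bp at 6 h and −57 bp at 72 h, and 39, 39 and 37 of the 57 summits lay within 100 bases of it. The 72 h list differed from the others in number of regions, lowest fold and share of weak regions, as given above, and the part of these differences in the splitting was not tested.

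**Figure D4:**
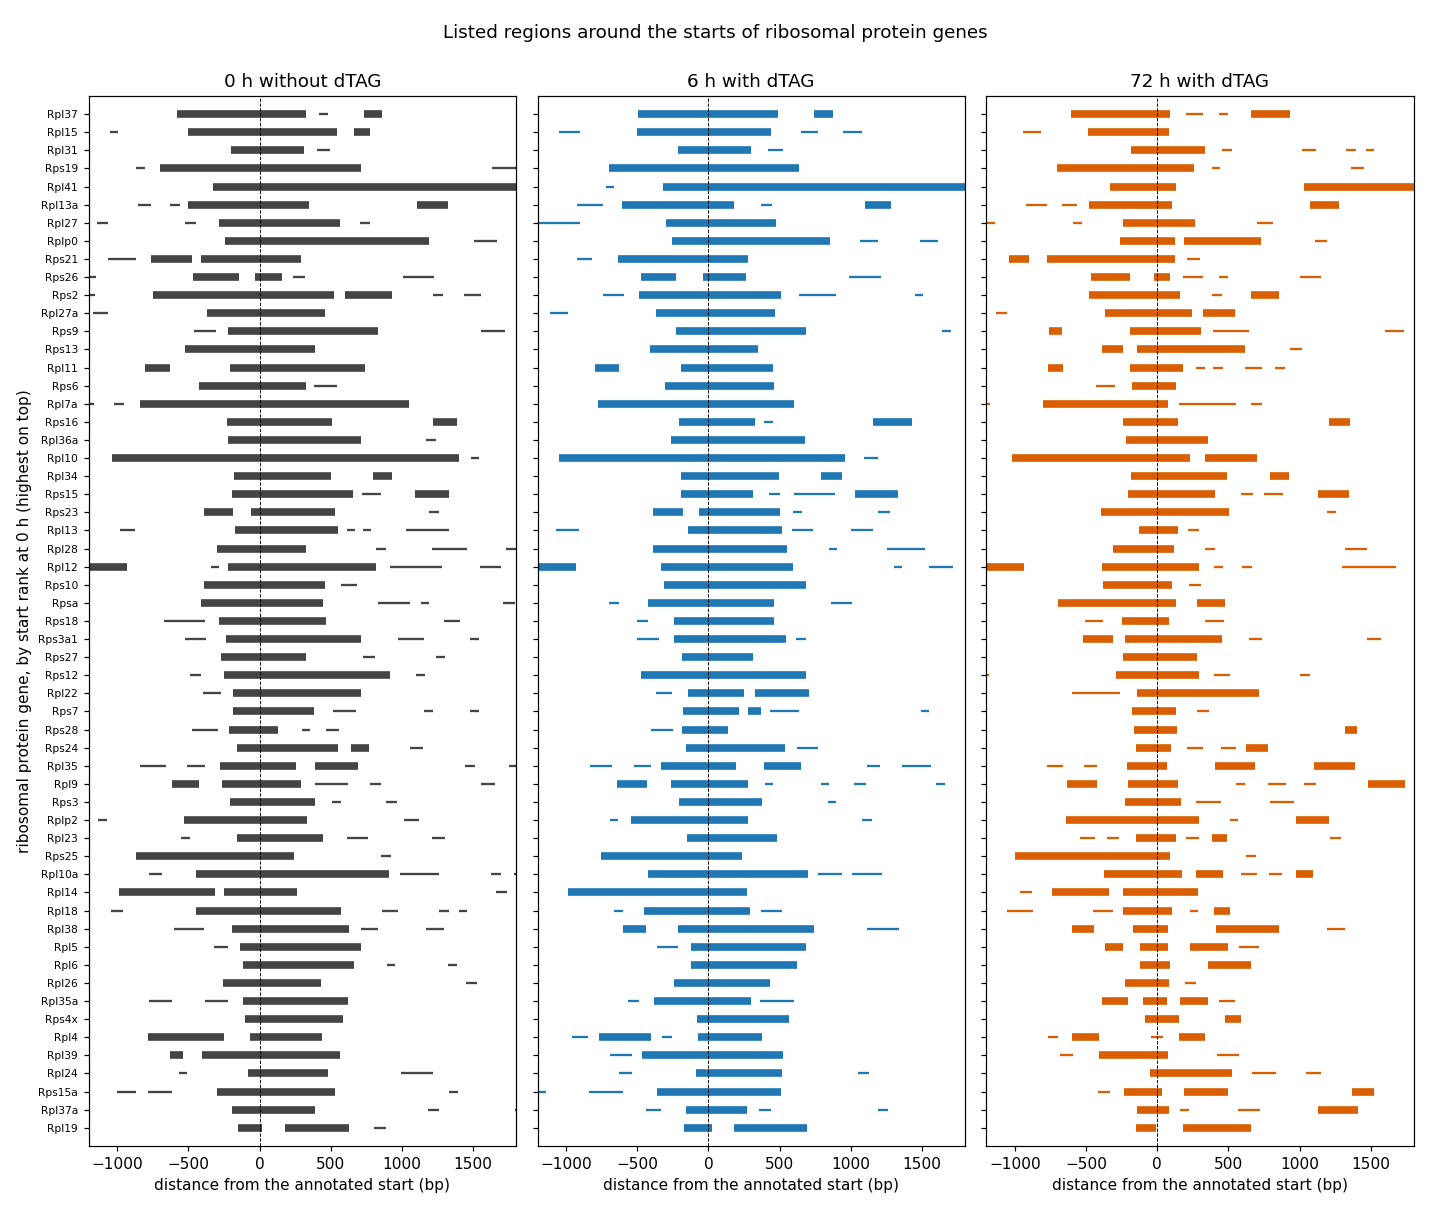
Listed regions around the annotated start (x axis, bp, negative values upstream) for the 57 genes of the ribosome with a promoter entry (y axis, ordered by 0 h rank), 1 panel per library. Thick bars are regions with a fold of at least 10 and thin bars weaker ones. At 72 h the highest region ends at a median of 143 bases after it, against 499 at 0 h, and separate pieces follow downstream.

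**Figure D5:**
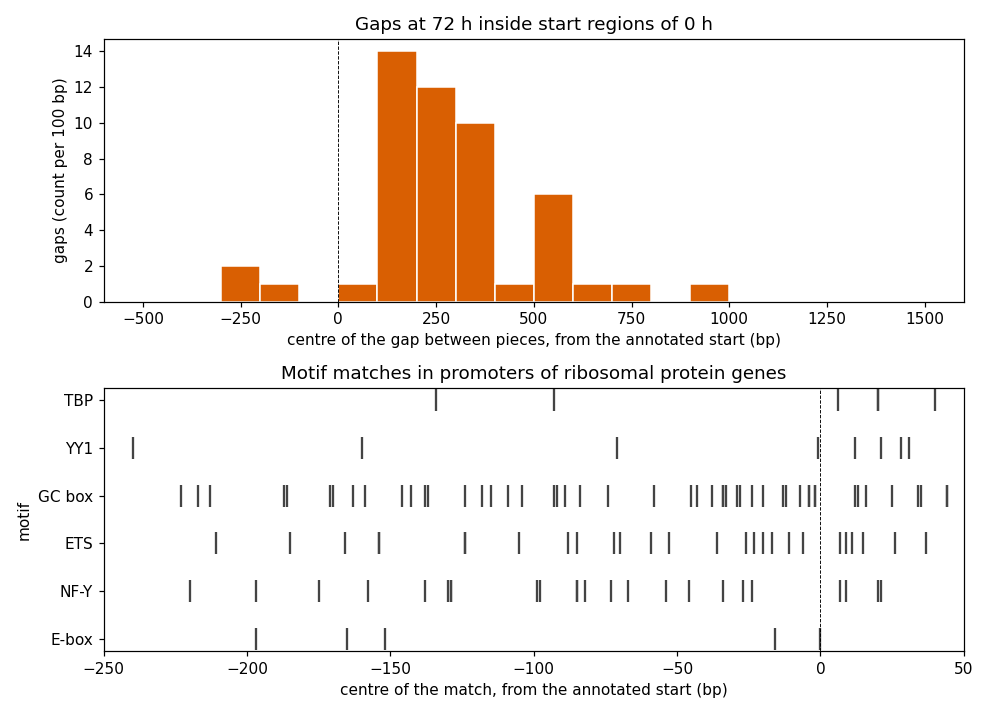
Top: number of gaps (y axis) between pieces at 72 h inside 0 h start regions, by the distance of the gap centre from the annotated start (x axis, bp, in bins of 100 bp). Bottom: position of each motif match in the 57 promoters (x axis, bp from the start), 1 row per factor. Of the 50 gaps, 47 lie downstream of the start. Of the ETS and GC box matches, 21 of 27 and 41 of 49 lie upstream, in a search window of 250 bases before and 50 after the start. Gaps were not confined to that window, so the sides cannot be compared between top and bottom.

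The P stalk, a flexible arm of the large subunit that recruits elongation factors, is built from Rplp0 as scaffold and dimers of Rplp1 and Rplp2. Rplp0 (chromosome 5, 115559467 to 115563729) had folds of 130, 146 and 197 and ranks of 87.2, 84.2 and 92.2. Its start region was 1438 bp long at 0 h, 1112 bp at 6 h and 385 bp at 72 h, when a separate piece of 541 bp and fold 28.9 lay from 186 to 726 bases after the start. Rplp1 had ranks of 64.0, 62.2 and 66.2, and Rplp2 55.6, 52.9 and 49.4. The height order of the 3 genes was the same in each library, and of the 3 only the Rplp0 region split.

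The 10 Diamond-Blackfan genes used here are a chosen list, not every gene linked to the disease, and their medians describe that list only. They had a median rank of 59.6 at 0 h, 50.1 at 6 h and 49.3 at 72 h. Gene by gene, 8 of 10 were lower at 6 h (median difference −4.67 points), beside 51 of the 83 ranked members and 6124 of all 12378 ranked genes. At 72 h 5 were lower and 5 higher (median difference −0.220). Rps19, the gene most often mutated in the disease, was high throughout, with ranks of 94.6, 91.2 and 96.7. Rpl35a was low (32.9, 25.8 and 41.6). Rps24 (58.8, 52.9 and 46.3), Rps10 (63.6, 65.2 and 51.4) and Rps7 were lower by at least 10 points at 72 h, and Rpl26 was higher. Over all ranked genes, 13.7% were lower and 14.2% higher by that much. In 9 of the 10 the 0 h start region was in pieces at 72 h, the exception being Rps26. Splitting was common among all members (60.7%), against 25.8% of all genes with a start region at 0 h. Their start regions had a median length of 725 bp at 0 h and 306 bp at 72 h.

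Rpl5 and Rpl11 bind 5S ribosomal RNA together, and the free particle inhibits MDM2 when ribosome assembly fails. Rpl5 had ranks of 36.7, 29.8 and 38.9. Its region of 853 bp at 0 h (809 at 6 h) gave way to pieces of 202, 269 and 139 bp with folds of 61.7, 14.8 and 7.81 at 72 h. Rpl11 had ranks of 76.8, 74.7 and 70.4, and its region went from 947 to 648 and 375 bp, with 4 pieces at 72 h. In both genes the piece at the start was the highest, and the pieces inside the gene were weaker.

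The 4 X-linked genes had a median rank of 52.3, 46.3 and 46.2. Rpl10 was the highest at 72 h (73.4, 74.3 and 70.8), Rpl39 had 30.6, 28.3 and 38.4, and Rps4x 31.2, 23.0 and 32.9. Rpl36a, described above, was the only one of them past 10 points. A large change in length was seen outside these lists, at Rpl41, which encodes a very small protein of the large subunit. Its start region measured 2272 bp at 0 h, 2285 at 6 h and 469 at 72 h. Before the 72 h library that region ran on into the start of Zc3h10. Rpl41 is named for its length after its values were seen.

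Among the other genes of translation, splitting at 72 h was counted in 25 of 78 mitochondrial ribosomal protein genes (32.1%), 29 of 65 translation factor genes (44.6%) and 16 of 40 ribosome assembly genes (40.0%). The share was 60.7% over the members and 25.8% over all genes with a start region at 0 h. Their start regions had median lengths of 502, 667 and 692.5 bp at 0 h, shorter than the 789 bp of the members. By rank, 18 of the 65 translation factor genes were lower by at least 10 points at 72 h and 6 higher, and 8 of the 40 assembly genes were lower at 6 h and 1 higher. Mitochondrial ribosomal protein genes had 9 lower and 7 higher at 72 h. Over all ranked genes, 13.7% were lower and 14.2% higher by that much at 72 h, and 3.78% and 3.59% at 6 h. The assembly genes had a median 6 h change of −2.28 points, so the lower 6 h ranks were not particular to the members.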

How the data were processed

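Accessible regions of 3 ATAC-seq libraries were analysed. The members and gene lists were chosen with earlier results of these data known. Per the submitters' processing notes, MACS2 2.2.7, BWA 0.7.17 and bedtools 2.30.0 were among the tools, and the build was mm10. For options, fragment selection, read shifting and duplicates, nothing is stated in the sources used here, and read depth is unknown. Each deposited list gives, per the authors' peak caller, a position, a fold (a ratio over background) and a −log10 p and −log10 q per region, called for each library alone. It also gives a deposited score, which was not used. Folds were used within a list, and ranks between lists.

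Gene positions and promoters were those of RefSeq for GRCm38.p6. All 89 members had a position and 69 an annotated start. The start window was 1 kb each side, the flank of a locus 10 kb, and regions matched when sharing at least 1 bp. A gene body region lay in the span outside the start windows. Exact Clopper-Pearson 95% intervals were used for shares. Named members were, for each comparison, the 5 largest rises and falls in rank and in regions per locus and each start region gained or lost. At 0 h they were the 5 highest and 5 lowest start regions and members without one. The Diamond-Blackfan genes, P stalk genes and copies were named throughout. A few members that this rule names count in every total but are not reported here by name. Alternatives were a −log10 q minimum of 10, lists of equal length, merging within 150 bp, a 250 bp window, −log10 q as height, flanks of 2 and 50 kb, counting per gene, 50% overlap and leaving out copies. Using either gene end for all genes, and ranking only genes with an annotated start, were added after seeing the data. The code (Python 3.11.15, numpy 2.4.6, pandas 2.3.3, scipy 1.17.1, matplotlib 3.10.9) was tested on simulated data.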

Additional observations from a re-analysis of the deposited data

How the results depend on the processing

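The median rank changes kept their sign under every alternative run. Among these, −log10 q in place of the fold is no separate check, since regions rank alike by both within a list. The medians were small beside the members' quartiles (−5.11 and 2.06 at 6 h, −3.68 and 7.73 at 72 h), so the sign is not a direction common to the members. Of 170 recomputed values, 140 stayed within 1.5 times the reported count or within the stated spread, and 30 moved. With a −log10 q of at least 10, loci held 378, 391 and 408 regions, so that both later numbers were above that of 0 h. The 6 h ratio relative to all loci was 0.990, and split start regions numbered 8 at 6 h and 29 at 72 h. Of the 0 h regions then used, 93.4% at starts and 93.4% elsewhere were kept at 6 h, and 94.3% and 76.6% at 72 h (68.0% and 56.1% of regions elsewhere with all regions). With lists of equal length, 85.9% and 76.6% were kept at 6 h, and 83.1% and 69.0% at 72 h. Merging within 150 bp gave lengths of 1005, 915 and 694 bp and split regions in 10 and 26 members. Flanks of 2 kb gave 437, 348 and 372 regions, and flanks of 50 kb 2388, 2257 and 2024, with a 6 h ratio of 0.964 relative to all loci. Requiring 50% overlap gave 73.2% and 63.1% kept at 6 h, and 64.3% and 49.5% at 72 h. The causes were not tested beyond what each setting leaves out. No paired analysis was possible because each group holds 1 library and no result comes from a test. Without read totals, a missing region may hold signal below the lowest listed fold.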

Other observations

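Ribosomal protein genes are known hosts of small nucleolar RNAs (snoRNAs), which are cut from their introns and guide chemical modification of ribosomal RNA. In the annotation, 30 of the 89 members (33.7%) held at least 1 snoRNA gene in their span, 59 snoRNAs in all, against 1.70% of all coding genes. All 30 were genes of the ribosome and none was a copy. Rpl4 held 5, and Rpl13a and Rpl7a held 4 each.

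Processed pseudogenes of ribosomal protein genes are scattered over the genome by retrotransposition and lack the promoter of their parent. Of 324 annotated ones, 6 were overlapped by a region at 0 h (1.85%, exact 95% interval 0.683 to 3.99), 7 at 6 h (2.16%) and 2 at 72 h (0.617%). Over 10285 other pseudogenes the shares were 8.32%, 8.35% and 6.03%. The spans differ in length, with medians of 533 bp and 936 bp, and the part of length in this difference was not tested. Nor was the part of reads that match both a pseudogene and its parent gene, whose handling is not known.

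Members with and without a motif were set side by side. The 34 promoters with a GC box had a median 0 h rank of 70.3, and the 23 without one 59.3. For the ETS core the medians were 62.5 in 23 promoters and 61.5 in 34. The 13 with a pyrimidine run at the start base had a median of 61.5, and the 44 others 63.8. These are descriptions of 1 library.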
